A study of Homo sapiens with 7 samples.

Results

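The actin and tubulin genes examined here were 8 of the 19630 human protein-coding genes with a known strand. They were listed by name, by gene family, with no threshold on a measured value. ACTB and ACTG1 encode the cytoplasmic beta- and gamma-actins. TUBA1A, TUBA1B and TUBA1C encode alpha-tubulins, and TUBB, TUBB4B and TUBB6 encode beta-tubulins. For each gene, a window was laid from 1 kb before its first base, the transcription start site (TSS), to 10 kb after its last base, the transcription end site (TES). Every peak that touched the window in 6 deposited peak lists was then collected.

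The lists came from chromatin immunoprecipitation sequencing (ChIP-seq) of RNA polymerase II (Pol II) phosphorylated at threonine 4 of its repeated C-terminal domain (pThr4). The chromatin was from fixed HEK293 cells, an established human embryonic kidney line with no genetic change named in the labels. Nuclear lysate was split into matched portions, and each portion was incubated either with active SCP1 (SCP1 WT), a phosphatase for the phosphate on serine 5 (pSer5), or with its catalytically inactive D96A mutant (SCP1 D96A). Antibody 6D7 against pThr4 was used for all 6 libraries, with 3 biological replicates per group. The comparison addressed where pThr4 lies that the antibody does not reach while pSer5 is next to it. The enzyme acted on lysate and not in living cells. A precipitation with IgG was not analysed here.

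Actin polymerizes into the microfilaments that give cells their cortex and their contractile force. Pairs of alpha- and beta-tubulin polymerize into microtubules, the tracks of transport and the fibres of the mitotic spindle. The transcribing polymerase changes its phosphorylation along a gene. The pSer5 mark is best known from the starts of genes, and pThr4 is best known from the stretch past the gene end, where transcripts are cleaved and the polymerase terminates.

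All 6 lists were unlike in length, and this touches every value below. For SCP1 WT the 3 lists held 12658 (replicate 1), 6700 (replicate 2) and 36988 (replicate 3) peaks, and for SCP1 D96A they held 2477, 1171 and 2709. The lowest listed −log10 p was 3.08 to 3.79 with SCP1 WT and 4.20 to 4.6 with SCP1 D96A, so the SCP1 WT lists also admitted weaker peaks. The lists give no read counts, and the depth of the libraries is unknown. Peak names carry the numbers 10 and 1 for replicate 1, 10 and 2 for replicate 2, and 5 and 2 for replicate 3, alike in both groups. The sources used here do not say what these numbers mean, or how replicates 2 and 3, which share the second number, are related. Of 8 genes known to be expressed in HEK293, 5 had a peak in the window in at least 1 library, beside 68.0% of all genes, so this count does not bear on the labelled cell line. Of 8 genes of other tissues 1 did, MYH7 in SCP1 WT replicate 3.

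Sequences before the start sites are shown first, since TUBA1C, TUBB and TUBB6 have more than 1 start site. Peaks lay at only some of the start sites of TUBA1C and TUBB. For TUBB6 a peak of SCP1 WT replicate 3 lay over each start site. RefSeq promoters (GRCh38.p14) were at hand for 7 of the 8 genes with 11 start sites in all. At 4 of those start sites a peak lay over the bases selected for display, in each case in SCP1 WT replicate 3 and in no other library. Of these, 3 are printed, together with the first start sites of TUBA1C and TUBB, over which no library had a peak. Each run is 100 bases, read 5′ to 3′ along the gene and chosen as the stretch nearest the start that no GENCODE transcript of the gene contains. Capitals mark GGGCGG, the GC box, or CCAAT, the CCAAT box, on either strand.
TUBA1C, start 49265082, chr12:49264982-49265081, plus strand, peak in SCP1 WT replicate 3: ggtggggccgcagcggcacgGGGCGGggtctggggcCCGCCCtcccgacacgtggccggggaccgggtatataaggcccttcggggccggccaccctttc
TUBA1C, start 49227926, chr12:49227826-49227925, plus strand, no peak: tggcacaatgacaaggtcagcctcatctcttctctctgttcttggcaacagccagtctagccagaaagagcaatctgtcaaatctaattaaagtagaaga
TUBB, start 30721638, chr6:30721493-30721592, plus strand, peak in SCP1 WT replicate 3: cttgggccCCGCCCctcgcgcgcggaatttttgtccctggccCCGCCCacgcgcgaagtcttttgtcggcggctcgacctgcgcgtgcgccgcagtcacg
TUBB, start 30720352, chr6:30720252-30720351, plus strand, no peak: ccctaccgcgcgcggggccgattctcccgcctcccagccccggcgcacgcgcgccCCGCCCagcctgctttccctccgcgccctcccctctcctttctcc
TUBB6, start 12307669, chr18:12307569-12307668, plus strand, peak in SCP1 WT replicate 3: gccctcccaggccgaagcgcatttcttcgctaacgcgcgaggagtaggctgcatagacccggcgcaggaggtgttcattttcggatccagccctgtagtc

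The TUBA1C pair differed in base composition, with G or C at 77% of the printed bases at the internal start and 43% at the first. For TUBB the values were 72% at the internal start and 78% at the first. For TUBB6 they were 61% at the printed first start and 90% at start 12308241. The run before that start is not printed and holds GGGCGG at 4 places and CCAAT at 1. Over the whole 250 bases before the start, GGGCGG was present at 6 of the 11 start sites and in 42.6% of all 35116 RefSeq promoters. CCAAT was present at 8 of the 11 and in 32.0% of all promoters. The exact letters TATAAA were present at 0 of the 11 and in 10.7% of all promoters. Near variants were not counted, such as the tatataag in the run printed for the internal start of TUBA1C. These matches describe the letters only.

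ACTB, beta-actin (chr7:5527148-5530601, minus strand), had a peak past its end in all 6 libraries. With SCP1 WT the main peak ran from 170 to 3938 bp past the TES in replicate 1, from 290 to 3831 bp in replicate 2, and from 9 bp before the TES to 3587 bp past it in replicate 3. With SCP1 D96A, replicate 1 had a peak from 306 to 1588 bp and a separate peak from 2856 to 3543 bp. The peak of SCP1 D96A replicate 2 ran from 353 to 1667 bp, and that of replicate 3 from 605 to 3561 bp. The near part of the stretch was therefore in every list, and the far part was absent from SCP1 D96A replicate 2. A run of 984 bp, 605 to 1588 bp past the TES, was covered in all 6 libraries. In the 3 SCP1 WT libraries the shared run was 3298 bp, from 290 to 3587 bp.

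Little of ACTB itself was covered. The only other peak was in SCP1 WT replicate 1, 841 bp wide, 1467 to 2307 bp after the TSS. No library had a peak within 1 kb of the TSS. A lncRNA gene of unstated strand, LOC221946, lies from 1603 bp past the ACTB end onward, beyond the run covered in all 6 libraries. The far part of the longer peaks lies over that gene and cannot be assigned to either gene, since peaks carry no strand.

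ACTG1, gamma-actin (chr17:81509971-81512799, minus strand), had shorter and weaker peaks, in 5 libraries. With SCP1 WT they lay 1153 to 1779 bp past the TES in replicate 1, 1386 to 1717 bp in replicate 2 and 714 to 3878 bp in replicate 3. With SCP1 D96A they lay 2018 to 3105 bp in replicate 1 and 1086 to 1717 bp in replicate 2, and replicate 3 had none. The peaks of SCP1 WT shared 332 bp, and the peak of SCP1 D96A replicate 1 lay beyond that run. No base was covered in all 6 libraries, and no base of the gene itself was covered in any library. No other gene of the RefSeq table lies in the ACTG1 window.

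The 3 alpha-tubulin genes lie within 147 kb of each other on chromosome 12, and their peaks differed widely. TUBA1B (chr12:49127782-49131395, minus strand) had a peak across or just past its end in all 6 libraries. With SCP1 WT the peak ran from 463 bp before the TES to 1457 bp past it in replicate 1, from 312 bp before to 1729 bp past in replicate 2 and from 425 bp before to 1701 bp past in replicate 3. With SCP1 D96A it ran from 320 bp before to 1483 bp past the TES in replicate 1, from 122 to 1548 bp past in replicate 2 and from 337 to 1357 bp past in replicate 3. The far border lay 1357 to 1729 bp past the TES in every library, and 1021 bp, 337 to 1357 bp past the TES, were covered in all 6 libraries. SCP1 WT replicate 3 had a second peak near the start, 105 to 1191 bp after the TSS. A lncRNA gene on the plus strand, TUBA1B-AS1, lies in the part of the window before the TSS, where no library had a peak.

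TUBA1C (chr12:49227926-49274600, plus strand), the longest of the 8 genes, had its peak before the annotated end and not past it. The peak lay 1015 to 375 bp before the TES in SCP1 WT replicate 1, 945 to 339 bp before in replicate 2 and 1089 to 392 bp before in replicate 3. SCP1 D96A replicate 1 had a peak of 258 bp inside the same place, 826 to 569 bp before the TES, and the other SCP1 D96A libraries had none. SCP1 WT replicate 3 had 2 more peaks, over the internal start site printed above, 37156 bp into the gene, and 8955 to 9660 bp past the TES.

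TUBA1A (chr12:49184795-49189080, minus strand), an alpha-tubulin best known from neurons, lies between the other two and had no peak in its window in any library. The nearest peak on either side was 32726 bp away in SCP1 WT replicate 3 and 56550 to 57350 bp away in the other 5 libraries. In all, 32.0% of the 19630 genes had no peak in the window in any library. Signal below the cutoff of the lists was not detectable here.

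Among the beta-tubulins, TUBB (chr6:30720352-30725422, plus strand) had a peak across its end in all 6 libraries. With SCP1 WT it ran from 3828 bp before the TES to 2020 bp past it in replicate 1, from 1732 bp before to 1261 bp past in replicate 2 and from 1287 bp before to 2332 bp past in replicate 3. With SCP1 D96A the peak ran from 435 bp before to 1151 bp past the TES in replicate 1, from 615 bp before to 1008 bp past in replicate 2 and from 434 bp before to 1054 bp past in replicate 3. The 3 SCP1 D96A peaks nearly coincided, and each SCP1 WT peak reached farther both into the gene and past its end. A run of 1443 bp, from 434 bp before to 1008 bp past the TES, was covered in all 6 libraries.

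Peaks reached the internal start site of TUBB, 1286 bp into the gene, in SCP1 WT only. The long peak of SCP1 WT replicate 1 began 1242 bp after the TSS, and SCP1 WT replicate 3 had a separate peak from 1045 to 2452 bp after it. SCP1 WT replicate 3 also had peaks 3422 to 3821 bp and 5484 to 5995 bp past the TES, both inside FLOT1, which encodes the membrane scaffold protein flotillin-1. FLOT1 is on the minus strand and ends 2287 bp from the end of TUBB, so the run covered in all 6 libraries lies past the end of both genes or inside TUBB, and its source cannot be assigned from peaks without strand.

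TUBB4B (chr9:137241287-137243707, plus strand) had peaks in 3 libraries. They lay 198 to 635 bp past the TES in SCP1 WT replicate 2, 60 to 851 bp in SCP1 WT replicate 3 and 457 to 757 bp in SCP1 D96A replicate 2. SCP1 WT replicate 3 had 2 more, at 3888 to 5087 bp and 6161 to 7751 bp. All of these peaks lie inside CIMIP2A, a gene on the minus strand whose end overlaps that of TUBB4B by 109 bp. STPG3, STPG3-AS1 and LOC124902316 also lie in the window.

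TUBB6 (chr18:12307669-12329826, plus strand) was the only one of the 8 genes with a peak in all 3 SCP1 WT libraries and none in any SCP1 D96A library. It was also the only one with a peak within 1 kb of the TSS in all 3 SCP1 WT libraries. That peak ran from 838 to 113 bp before the TSS in replicate 1, from 1480 to 371 bp before it in replicate 2 and from 1162 bp before to 1584 bp after it in replicate 3. The shared run of 468 bp, 838 to 371 bp before the TSS, lay upstream of the bases printed above. The promoter peaks of TUBB6 were weak in their own lists, with −log10 p of 3.90, 4.54 and 3.57 in replicates 1, 2 and 3. The lowest listed value with SCP1 D96A was 4.23 in replicate 1, 4.6 in replicate 2 and 4.20 in replicate 3. The peaks of SCP1 WT replicates 1 and 3 were thus weaker than any SCP1 D96A entry. That of replicate 2 was weaker than any entry of SCP1 D96A replicate 2. The absence of promoter peaks with SCP1 D96A therefore does not show a difference between the groups.

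The strongest TUBB6 peak in each SCP1 WT library lay in the gene and not past its end. It ran from 5779 to 1950 bp before the TES in replicate 1, from 2903 to 2535 bp before in replicate 2 and from 5098 to 1678 bp before in replicate 3. AFG3L2, a mitochondrial protease gene on the minus strand, overlaps the end of TUBB6 by 883 bp, and these 3 peaks lie 796 to 4897 bp past the end of AFG3L2. The peaks past the TES of TUBB6 lie inside AFG3L2, where a lncRNA gene, LOC107985154, is annotated as well. Whether these peaks belong to TUBB6 or to AFG3L2 cannot be told apart here.

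**Figure D1:**
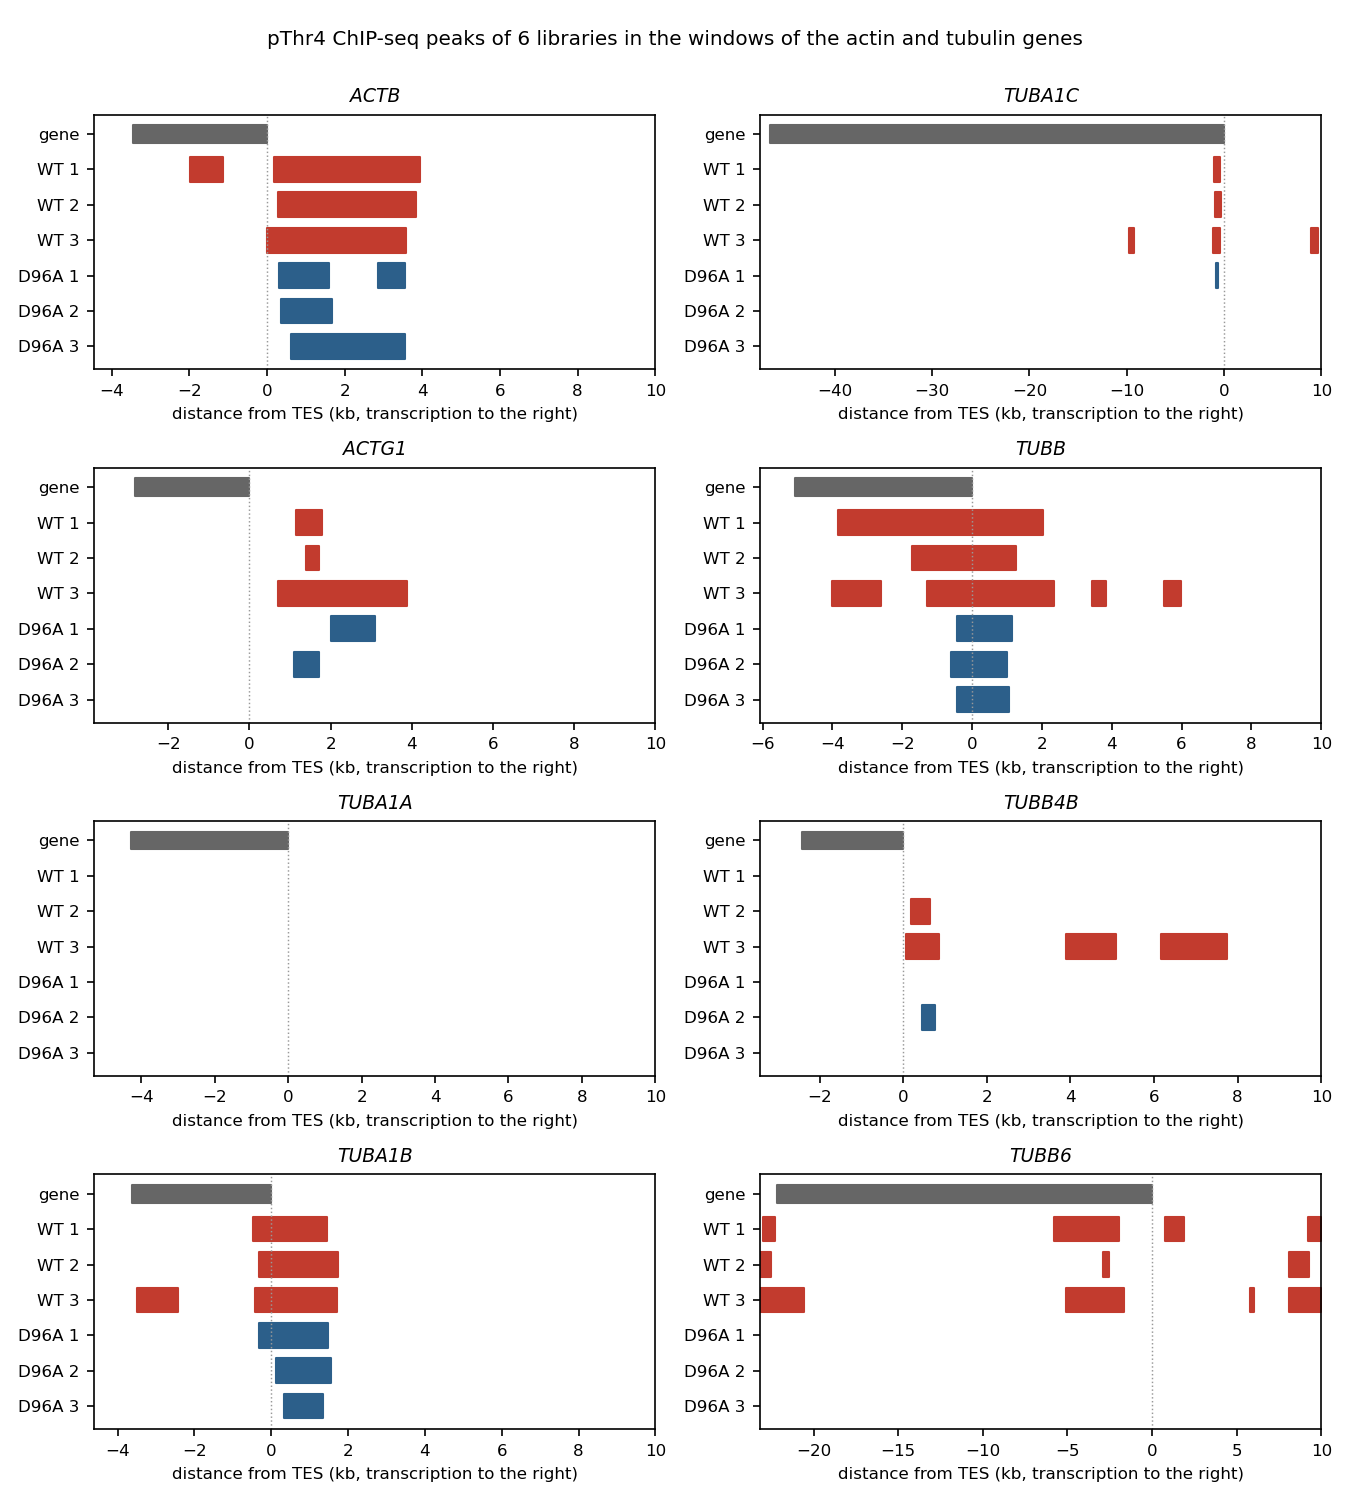
Peaks (bars) of the 3 SCP1 WT libraries (red) and the 3 SCP1 D96A libraries (blue) in the window of each gene (grey bar), against the distance from the TES in kb with transcription to the right. The peaks of ACTB, TUBA1B and TUBB at or just past the gene end recur in all 6 libraries, TUBA1A has none, and TUBB6 has peaks in the SCP1 WT libraries only.

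Counted over libraries, 3 of the 8 genes, ACTB, TUBA1B and TUBB, had a peak in the window in all 6, against 7.12% of all 19630 genes. The same 3 genes were those with a peak in all 3 SCP1 D96A libraries, against 7.18% of all genes, and those with a peak within 1 kb of the TES in all 6 libraries, against 3.38%. A peak in all 3 SCP1 WT libraries was found for 6 genes, against 27.3% of all genes, the exceptions being TUBA1A and TUBB4B. A peak in all 3 SCP1 WT libraries with none in SCP1 D96A was found for TUBB6 alone, against 8.89% of all genes. A peak within 1 kb of the TSS in all 3 SCP1 WT libraries was found for TUBB6 alone, against 3.90% of all genes. Among the 8 genes, the peaks found in all 6 libraries thus lay at gene ends. Those of TUBB6, seen with SCP1 WT only, lay before its start and inside the gene as well. In replicates 1 and 3 the peaks at its start were weaker than any peak listed with SCP1 D96A. The strongest peaks inside TUBB6 also lie past the end of AFG3L2 and cannot be assigned to either gene. Per library, 6, 7 and 7 of the 8 genes had a peak with SCP1 WT in replicates 1, 2 and 3, beside 41.5%, 30.1% and 65.9% of all genes. With SCP1 D96A, 5, 5 and 3 genes had a peak, beside 16.2%, 8.23% and 17.2% of all genes.

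The share of the window covered by peaks was then compared between the groups gene by gene. The test was a two-sided exact permutation of the group labels, for which 6 libraries allow 20 divisions. It cannot give a p below 0.1, so no gene can pass 0.05 whatever its values, and each difference was also read against the spread between replicates. For 5 of the 8 genes, ACTB, TUBA1B, TUBA1C, TUBB and TUBB6, every SCP1 WT library had a higher coverage than any SCP1 D96A library (exact permutation test, p = 0.1 for each, 0.426 after Benjamini-Hochberg adjustment over all genes). The same held for 23.5% of all genes. The reverse order was found for 0 of the 8 genes and 0% of all genes. The direction was thus shared with many other genes, and the SCP1 WT lists were the longer ones.

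For TUBB the coverage of the window was 36.4%, 18.6% and 37.0% with SCP1 WT and 9.87%, 10.1% and 9.27% with SCP1 D96A in replicates 1, 2 and 3. The groups did not overlap, and the difference was 20.9 percentage points, from a mean of 30.7% ± 10.4 (SD, n = 3) to 9.75% ± 0.434 (SD, n = 3). Within replicates 1 and 2 it was 17.5 percentage points.

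For TUBB6 the coverage was 19.6%, 6.58% and 24.6% with SCP1 WT and 0% in each SCP1 D96A library. All SCP1 WT libraries were above, with a difference of 16.9 percentage points that was 13.1 within replicates 1 and 2. The strongest TUBB6 peak had a −log10 p of 5.12, 5.17 and 6.67 in SCP1 WT replicates 1, 2 and 3, against lowest listed values of 4.20 to 4.6 in the SCP1 D96A lists. When each list was reduced to its 1163 strongest peaks on chromosomes 1 to 22 and X, the number that the shortest list holds there, TUBB6 was at 0% in all 6 libraries. With peaks of −log10 p of at least 6 only, it was covered in SCP1 WT replicate 3 alone, at 10.3%.

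For ACTB the coverage was 31.9%, 24.5% and 24.9% with SCP1 WT and 13.6%, 9.10% and 20.5% with SCP1 D96A. The lowest SCP1 WT value was above the highest SCP1 D96A value, and the difference was 12.7 percentage points (16.8 within replicates 1 and 2). With 1163 peaks per list ACTB had no peak in SCP1 WT replicate 3, the groups overlapped and the difference was 2.46 percentage points (exact permutation test, p = 0.8).

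For TUBA1B the coverage was 13.1%, 14.0% and 21.99% with SCP1 WT and 12.3%, 9.76% and 6.99% with SCP1 D96A. The nearest values of the groups lay close together, and the difference of 6.67 percentage points was 3.86 without SCP1 WT replicate 3 and 2.504 within replicates 1 and 2. For TUBA1C the values were small, at 1.11%, 1.05% and 3.28% with SCP1 WT and 0.447%, 0% and 0% with SCP1 D96A. The difference of 1.66 percentage points was 0.933 without SCP1 WT replicate 3 and 0.858 within replicates 1 and 2. With 1163 peaks per list TUBA1C was at 0% in all 6 libraries.

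For ACTG1 and TUBB4B the libraries of the groups overlapped. ACTG1 was covered at 4.53%, 2.40% and 22.9% with SCP1 WT and at 7.87%, 4.57% and 0% with SCP1 D96A (exact permutation test, p = 0.7). Its difference of 5.79 percentage points rested on replicate 3: without SCP1 WT replicate 3 it was -0.68, and within replicates 1 and 2 it was -2.75. There both SCP1 D96A libraries were above both SCP1 WT libraries, but the nearest values were almost equal. They were 632 bp in SCP1 D96A replicate 2 and 627 bp in SCP1 WT replicate 1. TUBB4B was covered at 0%, 3.26% and 26.7% with SCP1 WT and at 0%, 2.24% and 0% with SCP1 D96A (exact permutation test, p = 0.4). Its difference of 9.24 percentage points was 0.884 without SCP1 WT replicate 3 and 0.510 within replicates 1 and 2.

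TUBA1B and TUBB kept their peaks when the lists were shortened. With 1163 peaks per list, these 2 genes still had a peak in all 6 libraries, against 3.82% of all genes. They were also the ones with a peak in all 3 SCP1 WT libraries, against 5.86%, and with every SCP1 WT library above every SCP1 D96A library, against 4.46%. With peaks of −log10 p of at least 6, ACTB joined them, with a peak in all 3 SCP1 WT libraries (3 genes, against 7.29% of all genes) and a coverage above that of every SCP1 D96A library (3 genes, against 5.94%). A peak in all 6 libraries at that cutoff was found for TUBA1B and TUBB, against 2.90% of all genes. The peak of ACTB in SCP1 D96A replicate 2 fell below the cutoff, with a −log10 p of 5.62. Both settings dropped whole peaks and left the borders of kept peaks as called in the full lists. TUBB thus kept its coverage unchanged in SCP1 WT replicates 1 and 2 and in all 3 SCP1 D96A libraries. A difference in the width of kept peaks could therefore not be removed by either setting.

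The 10 kb past the gene end have the same length for every gene and allow these stretches to be ordered by coverage. They hold other genes as well. Peaks past the TES of TUBB4B and TUBB6 lie inside CIMIP2A and AFG3L2, and LOC221946 and FLOT1 lie in the stretches of ACTB and TUBB. The order is therefore one of stretches, and the coverage cannot be assigned to the named gene alone. With SCP1 WT the order by mean coverage was ACTB (36.3% ± 1.20, SD, n = 3), TUBB (21.8% ± 10.0), TUBB6 (17.6% ± 5.09), TUBA1B (16.3% ± 1.496), ACTG1 (13.7% ± 15.6), TUBB4B (13.4% ± 19.5), TUBA1C (2.35% ± 4.08) and TUBA1A (0% ± 0). The lowest ACTB library, at 35.4%, was above the highest TUBB library, at 32.4%, and every other pair of neighbours in this order overlapped. ACTB was not apart from all other genes, since TUBB4B reached 35.8% in SCP1 WT replicate 3. With SCP1 D96A the order was ACTB (20.8% ± 8.27, SD, n = 3), TUBA1B (13.1% ± 2.52), TUBB (10.7% ± 0.730), ACTG1 (5.73% ± 5.46) and TUBB4B (1.00% ± 1.74), with the other 3 genes at 0%, and all neighbours overlapped. ACTB thus came first in both groups.

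Past the end, every SCP1 WT library was above every SCP1 D96A library for 3 genes, ACTB, TUBB and TUBB6, against 15.6% of all genes (exact permutation test, p = 0.1 for each, 0.642 adjusted over all genes). With 1163 peaks per list the ACTB difference of 15.5 percentage points was 3.56 (exact permutation test, p = 0.8). Over 5 kb in place of 10 kb past the end, the TUBB6 difference of 17.6 percentage points was 7.54 (exact permutation test, p = 1), and the groups overlapped. The ACTB values were 37.7%, 35.4% and 35.9% with SCP1 WT and 19.7%, 13.2% and 29.6% with SCP1 D96A. The TUBB values were 20.2%, 12.6% and 32.4% against 11.5%, 10.1% and 10.5%, a difference of 11.04 percentage points that was 5.70 without SCP1 WT replicate 3 and 5.61 within replicates 1 and 2. TUBA1B did not separate the groups here. It was covered at 14.6%, 17.3% and 17.01% with SCP1 WT and at 14.8%, 14.3% and 10.2% with SCP1 D96A (exact permutation test, p = 0.2). The other covered bases of its window lay in the gene, at 464, 313 and 1513 bp with SCP1 WT and 321, 0 and 0 bp with SCP1 D96A.

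**Figure D2:**
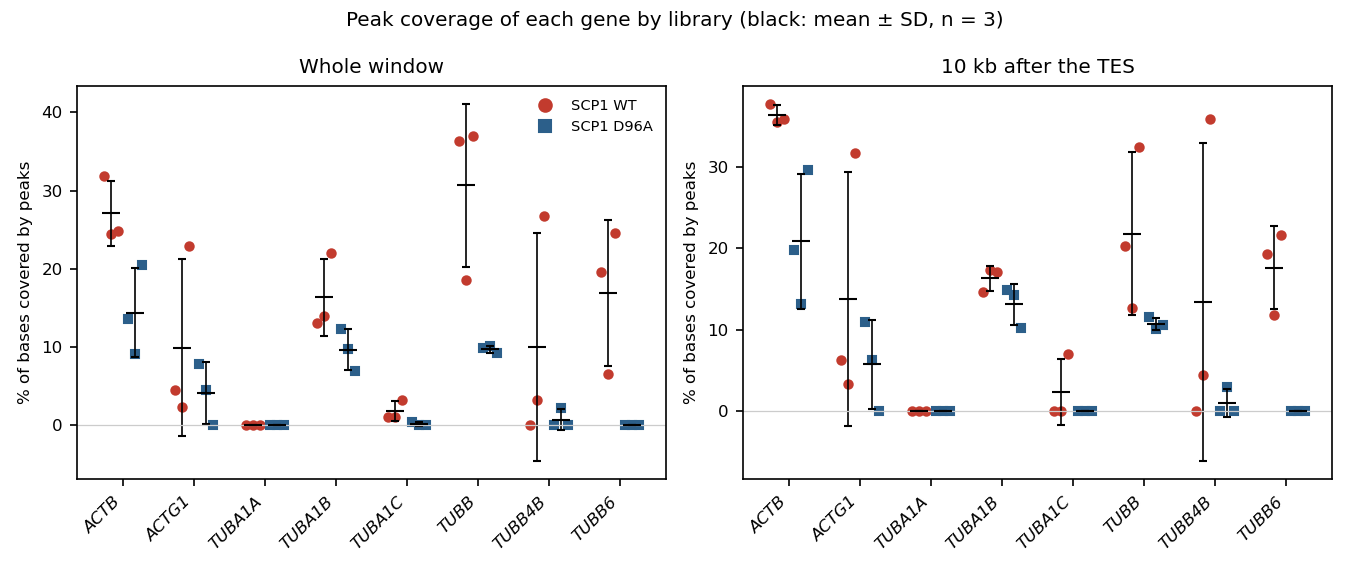
Share of bases covered by peaks, in percent, for each gene in SCP1 WT (red circles) and SCP1 D96A (blue squares), left over the whole window and right over the 10 kb past the TES; points are libraries 1 to 3 from left to right, and black bars are the mean ± SD (n = 3). TUBB at 9.27% to 10.1% with SCP1 D96A is below all 3 of its SCP1 WT libraries, and ACTG1 and TUBB4B are highest in SCP1 WT replicate 3.

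Over the 8 genes the median of the mean window coverage was 13.2% with SCP1 WT and 2.45% with SCP1 D96A, beside 0.779% and 0% over all 19630 genes. These medians describe a set of genes and were not tested.

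The strength of a peak was read within its own list, because fold enrichment and p depend on a depth that is unknown. The strongest TUBB peak stood at percentile 96.6, 97.7 and 99.02 of −log10 p among the peaks of SCP1 WT replicates 1, 2 and 3. With SCP1 D96A it stood at percentile 97.1, 81.9 and 92.0. Its deposited fold enrichment was 4.10, 4.69 and 4.51 with SCP1 WT and 5.25, 3.82 and 4.43 with SCP1 D96A. The control behind these ratios is not given in the sources used here. The TUBB end was thus among the stronger entries of every list.

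The strongest TUBA1B peak stood at percentile 93.7, 94.3 and 98.98 with SCP1 WT and at percentile 90.1, 72.6 and 78.0 with SCP1 D96A. The deposited fold enrichment was 4.45, 4.82 and 5.42 and 4.95, 4.30 and 4.36, respectively. The strongest ACTB peak stood at percentile 94.9, 94.3 and 96.2 with SCP1 WT and at percentile 89.0, 37.1 and 71.7 with SCP1 D96A. For both genes SCP1 D96A replicate 2, the shortest list, gave the lowest percentile. Longer lists hold more weak peaks, which raises the percentile of a strong one. Percentiles of lists unlike in length are therefore not on a common scale.

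The other genes ranked lower or unevenly. ACTG1 stood at percentile 63.5, 16.0 and 80.2 with SCP1 WT and at percentile 13.8 and 4.27 in SCP1 D96A replicates 1 and 2. TUBA1C stood at percentile 84.4, 62.2 and 96.5 with SCP1 WT and at percentile 11.7 in SCP1 D96A replicate 1. TUBB6 stood at percentile 72.9, 64.3 and 96.1 with SCP1 WT. TUBB4B stood at percentile 18.3 and 82.9 in SCP1 WT replicates 2 and 3 and at percentile 32.0 in SCP1 D96A replicate 2. SCP1 WT replicate 3 gave the highest percentile for every gene with a peak, and it is also the list with the most peaks. A high percentile in that list does not mean a place among its first peaks. With the lists cut to equal peak number, ACTB was left without a peak in SCP1 WT replicate 3 alone.

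**Figure D3:**
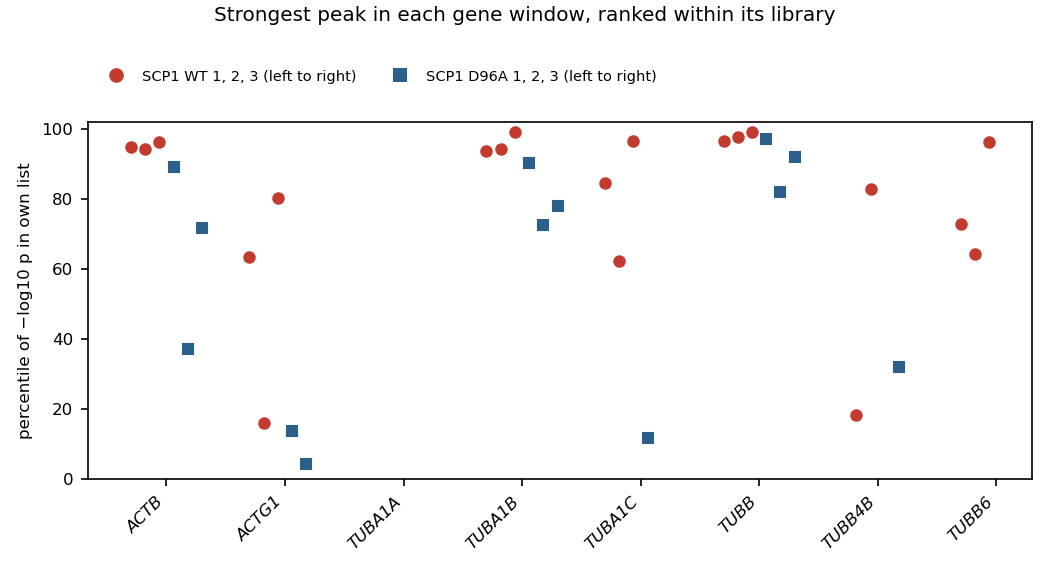
Percentile of −log10 p of the strongest peak in each window among all peaks of the same list, for SCP1 WT (red circles) and SCP1 D96A (blue squares) libraries 1 to 3 from left to right; a missing point means no peak. TUBB stays at or above percentile 81.9 in all 6 lists, while ACTB is at percentile 37.1 in SCP1 D96A replicate 2, the shortest list. Percentiles depend on the length of the list.

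The remaining genes of both families were examined in the same way. Of the other 5 actins, most of them actins of muscle, 2 had a peak in the window in at least 1 library, 1 in all 3 SCP1 WT libraries and 0 in all 3 SCP1 D96A libraries. The shares of all genes were 68.0%, 27.3% and 7.18%. ACTA1, skeletal muscle actin, was covered at 8.38%, 2.09% and 29.9% with SCP1 WT and at 2.08%, 0% and 0% with SCP1 D96A, with a peak within 1 kb of its TSS in 4 libraries. ACTA2, smooth muscle actin, was covered in SCP1 WT replicate 3 alone, at 1.42%.

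Of the other 5 alpha-tubulins, 4 had a peak in at least 1 library, 3 in all 3 SCP1 WT libraries and 0 in all 3 SCP1 D96A libraries. For this and the next 2 groups the shares of all genes were again 68.0%, 27.3% and 7.18%. TUBA3E was covered at 34.6%, 15.4% and 49.1% with SCP1 WT and at 7.58%, 0% and 23.4% with SCP1 D96A. TUBA3D was covered at 27.8%, 6.73% and 55.8% with SCP1 WT and at 5.44%, 5.87% and 0% with SCP1 D96A. These 2 genes are near-identical copies on chromosome 2, and the read filters are not given in the sources used here, so their values are uncertain. Of the other 6 beta-tubulins, 5 had a peak in at least 1 library and 1, TUBB1, a beta-tubulin of platelets, in all 3 SCP1 WT libraries, at 6.08%, 8.64% and 13.9%. Of the 4 gamma-, delta- and epsilon-tubulins, 2 had a peak in all 3 SCP1 WT libraries, TUBG2 and TUBD1, and none had one with SCP1 D96A. No gene of these 4 groups had a peak in all 6 libraries, beside 7.12% of all genes. In groups of 4 to 6 genes a count of 0 is near that share, and it was not tested.

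Genes whose products bind actin or tubulin were counted next. Of 27 actin partners, 23 had a peak in at least 1 library, beside 68.0% of all genes, 18 in all 3 SCP1 WT libraries, beside 27.3%, and 4 in all 6, beside 7.12%. In 13 every SCP1 WT library was above every SCP1 D96A library, beside 23.5% of all genes. These counts were not tested. The 4 were MYL6, a myosin light chain, PFN1, profilin, which binds actin monomers, FLNA, filamin, which cross-links filaments, and CAPZA1, a subunit of the capping protein. MYL6 was covered at 50.4%, 36.8% and 71.0% with SCP1 WT and at 18.9%, 6.72% and 15.3% with SCP1 D96A. PFN1 was covered at 35.7%, 15.1% and 53.4% with SCP1 WT and at 22.6%, 15.2% and 7.37% with SCP1 D96A. The groups were apart for MYL6 and overlapped for PFN1. A peak within 1 kb of the TES was present in all 6 libraries for PFN1 and FLNA, in 5 for MYL6 and in 0 for CAPZA1. MYL6 also had a peak within 1 kb of its TSS in all 6 libraries, unlike ACTB and TUBB.

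Of 19 tubulin partners, all 19 had a peak in SCP1 WT replicate 3, beside 65.9% of all genes, 12 in all 3 SCP1 WT libraries, beside 27.3%, and 1 in all 6, beside 7.12%, and in 12 every SCP1 WT library was above every SCP1 D96A library, beside 23.5%. The gene with a peak in all 6 was MAP4, a microtubule-associated protein, at 4.04%, 2.79% and 7.08% with SCP1 WT and 1.05%, 0.748% and 1.20% with SCP1 D96A. TUBGCP2, of the gamma-tubulin complex, and KIF5B, a kinesin heavy chain, each had a peak in 5 libraries.

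**Figure D4:**
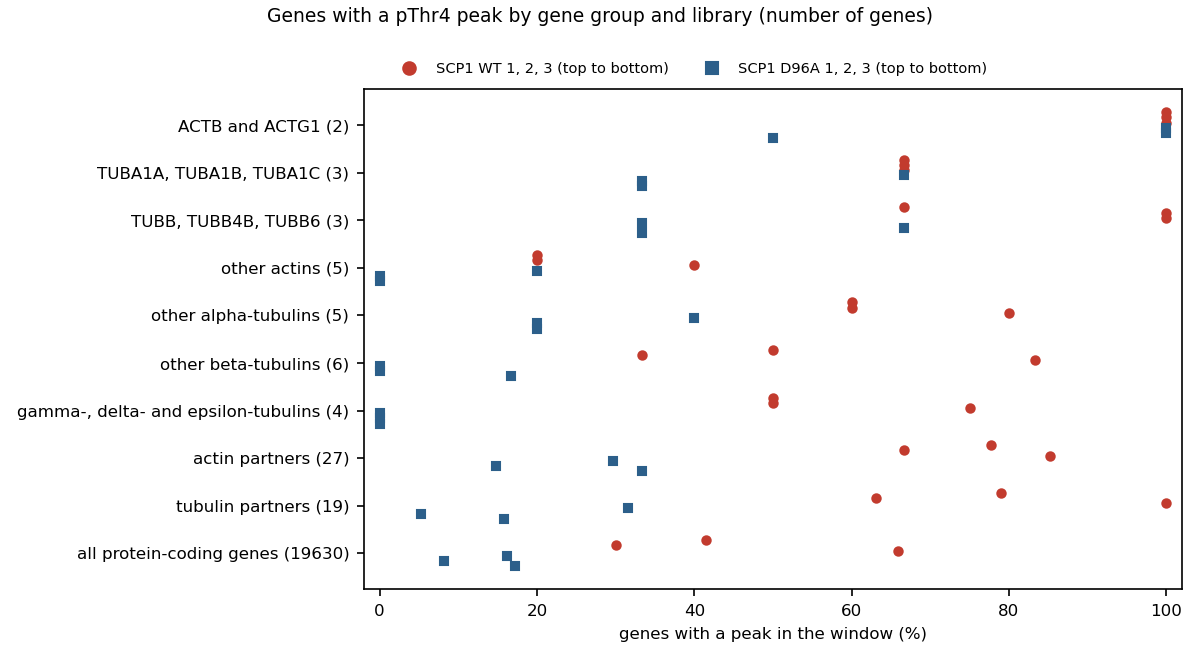
Share of genes with a peak in the window, in percent, in SCP1 WT (red circles) and SCP1 D96A (blue squares) libraries 1 to 3 from top to bottom, for the 8 genes by family, the other actins and tubulins, their partners and all protein-coding genes; the number of genes stands beside each group. Groups of 2 to 6 genes move in large steps, and all 19630 genes lie at 30.1% to 65.9% with SCP1 WT and 8.23% to 17.2% with SCP1 D96A.

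The genes most like ACTB and TUBA1B over the 6 window coverages were found by the Euclidean distance in percentage points. The gene nearest to ACTB was PPP1R10, a regulatory subunit of a protein phosphatase, at a distance of 8.31, with 28.4%, 27.2% and 30.3% with SCP1 WT and 10.6%, 7.48% and 17.7% with SCP1 D96A. Other near genes were EIF1 at 9.36, a translation initiation factor, HNRNPH1 at 10.3, an RNA-binding protein, and SMIM29 at 10.6. The gene nearest to TUBA1B was RPL8, a ribosomal protein gene, at 4.69, with 11.6%, 17.1% and 24.0% with SCP1 WT and 12.03%, 9.19% and 9.25% with SCP1 D96A. It was followed by CHTOP at 4.82, SRM, spermidine synthase, at 5.47, TEAD3, a transcription factor, at 5.57 and MATR3, a nuclear matrix protein, at 5.81. The windows differ in length between genes, and the distances describe likeness in these 6 libraries only.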

How the data were processed

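pThr4 ChIP-seq peak lists of 6 HEK293 libraries (3 SCP1 WT, 3 SCP1 D96A, grouped by their labels) were analysed. Tools named in the submitters' processing notes were FastQC, cutadapt 4.6 and Bowtie2 2.5.2, with build hg38; the peak caller's version, control and read filters are not given in the sources used here. The authors deposited 1 list per library in the broad-peak layout of MACS, with a fold enrichment (a ratio over the library's background), −log10 p-value, −log10 q-value (lists stop at q of 0.1) and a score, which was not used. Depth is unknown, so precision rests on the replicates.

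Gene positions were taken from RefSeq (GRCh38.p14). The strand came from the RefSeq promoter table for 7 of the genes and from GENCODE 44 by name for ACTB; 98.3% of 19974 protein-coding genes on chromosomes 1 to 22 and X obtained one. Peaks counted by an overlap of at least 1 bp. Coverage was the percent of bases under peaks, compared by two-sided exact permutation tests with Benjamini-Hochberg adjustment over all genes, in Python 3.11.15 with numpy 2.4.6 and pandas 2.3.3, and tested on simulated data. Biological replicates are as labelled, and their origin is not described further. The genes, lists, tests and alternatives were chosen with earlier results of these data known. Named were all 8 genes, genes inside their windows, at most 4 genes per other list with peaks in the most libraries, and the 5 genes nearest to ACTB and to TUBA1B in coverage, of which 1 is not reported here. Alternatives were equal peak number, a common p cutoff of 6, −log10 q of at least 2, 5 kb past the end, 50% of a peak inside the window, leaving out each library, replicates 1 and 2 only, and a replicate block.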

Additional observations from a re-analysis of the deposited data

How the results depend on the processing

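Differences are in percentage points of coverage, SCP1 WT minus SCP1 D96A, over the window and then past the end. For ACTG1 the difference turned from 5.79 and 8.01 to -1.52 and -2.11 with equal peak number and to -2.75 and -3.81 within replicates 1 and 2, and it was 0 in both with the p cutoff of 6. For TUBB4B it was -0.75 and -1.003 with equal peak number and 0 with the p cutoff. For TUBA1C it was 0 over the window and past the end with equal peak number, and 0 past the end with the p cutoff, with 5 kb and within replicates 1 and 2. For TUBB6 it was 0 in both with equal peak number and 0 past the end with the p cutoff. The number of genes with a peak in all 3 SCP1 WT libraries was 2 with equal peak number and 3 with the p cutoff, in place of 6, and the number with every SCP1 WT library above was 2 and 3, in place of 5. Within replicates 1 and 2 the number with every SCP1 D96A library above was 1 (ACTG1, with nearest values of 4.57% and 4.53%) in place of 0. For ACTB the difference was 2.46 and 3.56 with equal peak number, with the groups overlapping. For TUBB6 it was 3.44 over the window with the p cutoff, and past the end it was 7.54 with 5 kb and 7.19 with −log10 q of at least 2, with the groups overlapping in each. These settings keep fewer peaks, fewer bases or fewer libraries by construction.

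Leaving out 1 library at a time gave differences of 10.05 to 15.7 for ACTB, -0.68 to 9.56 for ACTG1, 3.86 to 8.28 for TUBA1B, 0.933 to 2.05 for TUBA1C, 17.8 to 26.9 for TUBB, 0.884 to 14.2 for TUBB4B and 13.1 to 22.1 for TUBB6 over the window. Past the end they were 11.7 to 19.9, -0.94 to 13.2, 1.74 to 4.05, 0 to 3.53, 5.70 to 15.6, 1.19 to 19.1 and 15.6 to 20.4. Of the negative values, -0.68 and -0.94 came without SCP1 WT replicate 3. Depth is not given for any list and limits each comparison.

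Same-numbered libraries of the groups were correlated at 0.023, 0.407 and 0.247 in their deviations over 13339 genes, not above 0.1 in every pair. Different-numbered libraries were correlated at -0.319 to 0.135. Each library correlated best with its own number except SCP1 D96A replicate 1, whose best was SCP1 WT replicate 3. The numbers in the peak names match between same-numbered libraries of the groups. The labels state matched portions but not that the replicate numbers mark them, so the block was kept as an alternative. With a replicate block, the difference was 12.7 for ACTB, 20.9 for TUBB, 6.67 for TUBA1B, 1.66 for TUBA1C and 16.9 for TUBB6, with SCP1 WT higher in all 3 pairs and p = 0.25 in an exact sign-flip test, the smallest possible, and 5 genes stayed apart, as without it.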

Other observations

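Copies of actin and tubulin genes lie across the genome as pseudogenes. Of 84 pseudogenes named after the 8 genes, 6 overlapped a peak, and each did so in SCP1 WT replicate 3 alone. These were 5 of 19 named after ACTG1, on chromosomes 1, 17, 20 and X, and 1 of 15 named after the alpha-tubulins, TUBAP11 on chromosome 15. None of the 14 named after ACTB and none of the 36 named after the beta-tubulins overlapped a peak in any library. SCP1 WT replicate 3 is the list with the most peaks, 36988, and had a peak in the window of 65.9% of all protein-coding genes. The share over all pseudogenes was not computed, so these counts are not read as a trait of the copies. How reads that match a gene and its copies were placed is not given in the sources used here.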
